A study of Mus musculus with 12 samples.

Results

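The genes described here encode cytosolic and mitochondrial molecular chaperones of the mouse. They were chosen by name from the deposited table of coding transcripts: symbols beginning with Hsp, with Dnaja, Dnajb or Dnajc and a digit, or with Cct and a digit from 2 to 8. Hspa5, Hsp90b1, Dnajb9, Dnajb11 and Dnajc3, which encode chaperones of the endoplasmic reticulum, were left out, as were Hspg2 and Hspbap1. The rule gave 78 of the 21771 gene names in the table, with 218 of its 59215 transcripts. The label does not hold for every gene, and the exceptions are not listed in full here. Among them, Dnajc10 encodes a reductase of the endoplasmic reticulum and Dnajb12 a J protein of its membrane. Hspb11 is also known as Ift25, a subunit of the intraflagellar transport machinery.

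The cells were MTEC1, labelled a mouse medullary thymic epithelial line of wild-type genotype and grown in DMEM with 10% fetal bovine serum. PAMK usually stands for a polysaccharide of the plant Atractylodes macrocephala Koidz, and the labels give its dose as 50 µg/ml for 12 h. There were 3 total RNA libraries of PAMK-treated cells and 3 of control cells, and the series design gives the control cultures 6 h, so treatment and culture time cannot be told apart if that text is right. All 6 libraries were of 1 cell line, and the labels do not say whether the libraries came from separate cultures. The p-values thus measure only how far these samples spread, which may be technical.

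Chaperones bind unfolded protein and let it fold, refold or pass to degradation. HSP70 proteins work in cycles of ATP binding and hydrolysis, in which J-domain proteins (the DNAJA, DNAJB and DNAJC classes) deliver clients and start hydrolysis, and exchange factors release the nucleotide. HSP90 finishes the folding of kinases and steroid receptors, small heat shock proteins hold unfolded clients without ATP, and the chaperonins (TRiC in the cytosol, HSP60 with its lid HSP10 in mitochondria) enclose a client in a chamber. Many of these genes are switched on by heat shock factor HSF1, which binds repeated GAA units in their promoters.

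Promoters of chaperone genes are shown first because they were searched for the GAA units that HSF1 binds. RefSeq windows on GRCm38.p6 were found by symbol for 62 of the 78 genes, and the 250 bases before each gene start were searched on both strands. The spellings searched were GAANNTTC and TTCNNGAA, which hold 2 inverted units, and GAANNTTCNNGAA and TTCNNGAANNTTC, which hold 3 and so contain the shorter spelling. The 2-unit spelling was present in 17 of 62 chaperone genes (27.4%) and in 14.5% of 27025 genes with a window. The 3-unit spelling was present in Hspe1, Hspd1 and Dnajb6 (4.84% of the 62) and in 0.514% of all genes with a window. In the stretches below capitals mark the matched bases, with overlapping matches joined into 1 run (18 bases in Hspe1 and Hspd1), each written 5′ to 3′ on the strand of its gene:
Hspe1, chr1:55088037-55088098, plus strand: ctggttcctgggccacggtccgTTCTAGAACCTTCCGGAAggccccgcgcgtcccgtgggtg
Hspd1, chr1:55088037-55088098, minus strand: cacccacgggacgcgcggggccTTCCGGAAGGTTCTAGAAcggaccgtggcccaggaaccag
Dnajb6, chr5:29735830-29735886, plus strand: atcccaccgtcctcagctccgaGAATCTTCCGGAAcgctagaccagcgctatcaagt
Cct2, chr10:117063388-117063439, minus strand: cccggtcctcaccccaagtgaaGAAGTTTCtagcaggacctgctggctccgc
Cct5, chr15:31601851-31601902, minus strand: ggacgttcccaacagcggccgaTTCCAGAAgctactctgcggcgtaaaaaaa
Hspa1a, chr17:34972231-34972282, minus strand: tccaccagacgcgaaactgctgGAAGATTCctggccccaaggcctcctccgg

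Hspe1 and Hspd1 encode HSP10 and HSP60 and are transcribed in opposite directions from 1 shared promoter, so the first pair of lines is the same DNA read from its 2 strands. It lies 89 to 72 bases before the start of Hspe1 and 144 to 127 bases before that of Hspd1. The Cct2 and Cct5 matches lie 42 to 35 and 34 to 27 bases before their starts. All these distances are from RefSeq starts, which need not be those of the deposited transcripts. The Cct2 stretch lies inside deposited transcript ENSMUST00000047672 (117051001 to 117063814). Likewise, the Dnajb6 stretch lies inside ENSMUST00000008733 (29735688 to 29786478), and the Hspd1 stretch inside the deposited span of Hspd1. The Hspa1a stretch is letter for letter that of its near-identical neighbour Hspa1b, and the promoters of that pair matched at 247 of 250 bases. A match is a description of letters, not a site shown to be bound. The median log2 fold change of tested chaperone genes was 0.05 for the 10 with the 2-unit spelling and 0.13 for the 36 without it.

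Expression was read from values taken as FPKM (fragments scaled to transcript length and library size), with the transcripts of a gene summed. The deposited coding transcripts summed to between 142230 and 145883 FPKM in PAMK libraries and between 133687 and 145039 FPKM in control libraries. The depth in fragments is unknown. Of 14 thymic and epithelial markers, 2 reached a mean of 0.5 FPKM and 5 had 0 in every library (Aire, Epcam, Krt5, Krt14 and Krt19); the sum of all 14 was 1.78 to 7.82 FPKM in PAMK and 2.90 to 3.27 FPKM in control libraries. The 9 fibroblast markers summed to 588 to 772 FPKM in PAMK and 503 to 644 FPKM in control libraries, and 8 haematopoietic markers to 3.13 to 3.99 and 2.28 to 2.70 FPKM in PAMK and control libraries. Most of the fibroblast sum came from S100a4 (298 to 391 FPKM over the 6 libraries) and Vim (92.5 to 253 FPKM). Col1a1 and Col3a1 lay between 28.3 and 79.4 FPKM, and Col1a2 ran from 0 to 91.2 FPKM. Dcn, Pdgfra, Pdgfrb and Thy1 were at most 5.45 FPKM in any library, so the fibroblast markers did not agree. At an unadjusted limma p under 0.05, 2 of 7 tested fibroblast markers were higher with PAMK (Col1a1 and S100a4). So was 1 of 2 tested haematopoietic markers (Cd68), and none of these overlapped between groups. Over all genes tested, 7.3% were higher at that threshold, and 14.1% had every PAMK library above every control library. None of the tested markers passed an adjusted limma p of 0.05. The 4 endothelial markers summed to at most 0.0694 FPKM in any library. The part of these markers in the chaperone values was not tested. In bulk RNA, fewer cells of a type and less RNA per cell cannot be told apart.

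Chaperone genes held 1.36%, 1.48% and 1.22% of the coding transcript FPKM in PAMK libraries 1, 2 and 3. The shares were 1.32%, 1.22% and 1.33% in control libraries 1, 2 and 3. The groups overlapped. Of that amount the HSP90 pair alone held 47.9%, 45.1% and 41.9% in PAMK libraries and 49.7%, 49.0% and 49.2% in control libraries. Every PAMK library was below every control library in this share of the chaperone sum. That sum includes Hspa8, with 56.0, 90.1 and 0 FPKM in PAMK libraries, against 12.8, 2.45 and 25.4 FPKM in control libraries. The order may rest on Hspa8, and no shift of HSP90 is read from it. In FPKM the HSP90 pair overlapped between groups, with 953, 970 and 730 in PAMK libraries, against 875, 841 and 948 in control libraries.

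The comparison asked which chaperone genes differed between PAMK-treated and control cells. None of the 59 chaperone genes with a mean of at least 0.5 FPKM passed limma's test at an adjusted p under 0.05, against 0.0716% (7 genes) of the 9781 genes tested. At an unadjusted limma p under 0.05, 9 chaperone genes were higher with PAMK (15.3% of 59, against 7.3% of all genes) and 1 was lower (1.69%, against 2.71% of all genes). The higher genes included Cct2, Cct5, Cct7, Hspe1, Hspb8, Hspb11, Dnajc2 and Dnajc4, and the lower one was Dnajc27. All 3 PAMK libraries lay above all 3 control libraries for 9 chaperone genes (15.3%, against 14.1% of all genes), and all below for 1 (1.69%, against 5.4%). A share near the background is no result about these genes.

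The median log2 fold change, PAMK over control on log2(FPKM + 1), was 0.13 over the 59 chaperone genes and 0.06 over all 9781 genes, with 43 chaperone genes (72.9%) and 60.5% of all genes above 0. With the medians of the libraries made equal, the chaperone median was 0.05 and that of all genes -0.03, and 33 chaperone genes (55.9%) and 44.3% of all genes were above 0. Under that scaling 5 chaperone genes were higher at an unadjusted p under 0.05 (against 3.51% of all genes) and 2 lower (against 7.55%). Of the genes named above, Cct5, Cct7, Hspb8 and Dnajc4 were no longer among the higher ones, and the lower ones were Dnajc27 and Dnajc10. Quantile normalization gave 6 higher (against 4.36%), without Cct7, Dnajc4 and Hspe1, and 1 lower (against 5.28%). The count of 9 higher genes was 5 without control library 3 and 5 without PAMK library 3. The count of 1 lower gene was 0 without control library 2, PAMK library 1 or PAMK library 2, and 2 without control library 3. The share over all genes was not counted with a library left out, so these counts stand without a background. The median was 0.09 without control library 2.

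**Figure D1:**
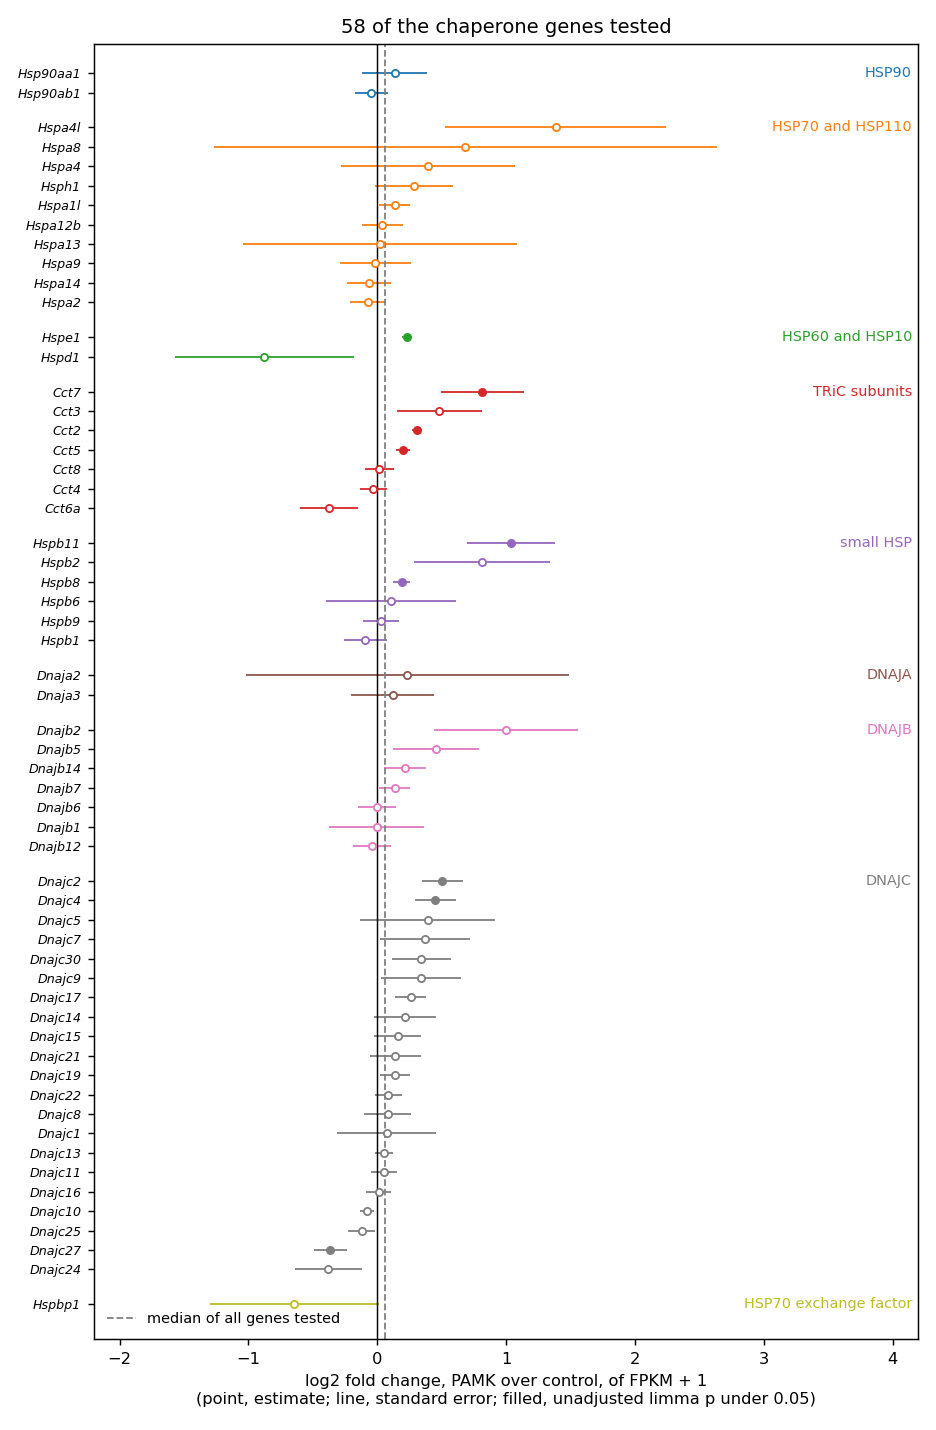
Log2 fold change (PAMK over control, FPKM + 1) of 58 of the 59 chaperone genes tested, grouped by family down the page; points are estimates, lines are standard errors (n = 3 libraries per group), filled points have an unadjusted limma p under 0.05, and the dashed line is the median of all genes tested. The 9 filled points are 8 genes above 0 and Dnajc27 below it, and the widest lines belong to genes such as Hspa8 whose libraries spread from 0 upward.

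HSP90 led the family in level. Hsp90ab1, the constitutive cytosolic HSP90, had 747, 799 and 573 FPKM in PAMK libraries, against 711, 726 and 730 FPKM in control libraries. PAMK libraries lay both above and below the control libraries, and the log2 fold change was -0.05 ± 0.13 (SE; limma adjusted p = 0.917). Hsp90aa1, the stress-inducible form, had 206, 170 and 157 FPKM in PAMK libraries, against 165, 115 and 218 FPKM in control libraries, with groups that overlapped and a limma adjusted p of 0.875. Its transcript ENSMUST00000021698 was near 0 in 1 control library: it had 43.0, 47.2 and 44.8 FPKM in PAMK libraries, against 49.5, 0.00235 and 53.6 FPKM in control libraries. The log2 fold changes of the 2 genes had opposite signs, and no direction is given for HSP90 as a family.

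**Figure D2:**
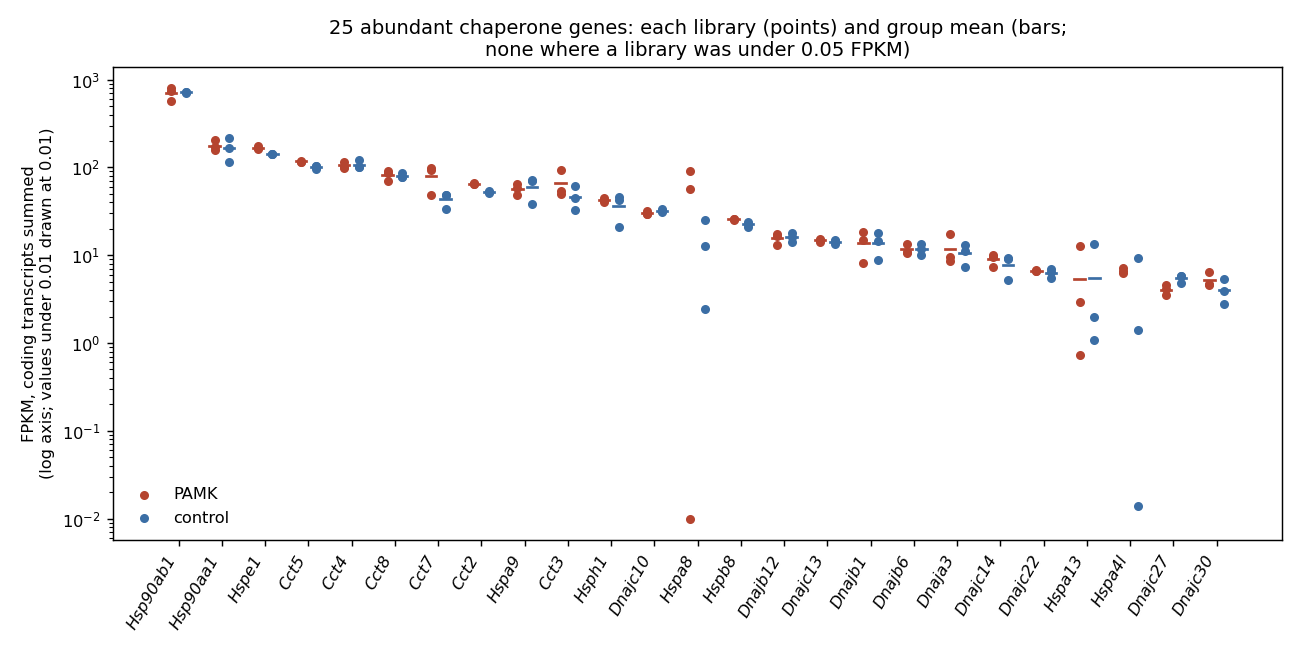
FPKM (log axis) of abundant chaperone genes in each of 3 PAMK and 3 control libraries (points), with the group mean as a bar unless a library was under 0.05 FPKM. Hsp90ab1 stands highest in both groups, Cct2 and Hspe1 have PAMK points above control points, and Hspa8 has 1 PAMK library listed at 0.

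Hspe1 encodes HSP10, the lid that closes the mitochondrial HSP60 chamber, and lies on chromosome 1 at 55088132 to 55091307 as deposited. It had 164, 176 and 165 FPKM in PAMK libraries, against 143, 143 and 144 FPKM in control libraries. Every PAMK library was above every control library, and the control libraries lay within 1 FPKM of each other. The means were 168 ± 6.54 FPKM with PAMK and 143 ± 0.411 FPKM in control cells (SD, n = 3 each), a log2 fold change of 0.23 ± 0.04 (SE; limma adjusted p = 0.268). It was 0.11 ± 0.04 with equal medians and 0.12 ± 0.06 after quantile normalization.

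Hspd1, the gene of HSP60 itself on the other side of the shared promoter (chromosome 1, 55077835 to 55088243), was listed at far lower values. It had 0.656, 0.278 and 0 FPKM in PAMK libraries, against 5.23, 1.06 and 0.0179 FPKM in control libraries. The groups overlapped, the log2 fold change of -0.88 ± 0.69 did not pass (limma adjusted p = 0.704; without control library 1 it was -0.17, and without control library 3 -1.48), and the noncoding table as given holds no isoform under that name. HSP60 is used by every cell with mitochondria, so Hspd1 is given here only as listed. The deposited coordinates of Hspe1 and Hspd1 overlap at their 5′ ends, and no source used here gives the strand setting, so reads from the overlap cannot be told apart.

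TRiC is a ring of 8 subunits that folds actin and tubulin, and 7 of its subunit genes fall under the name rule. Tcp1, the eighth, falls outside the rule and is shown beside them. Cct2 (chromosome 10, 117051001 to 117063814) had the smallest p of all chaperone genes. It had 65.4, 66.5 and 64.5 FPKM in PAMK libraries, against 51.7, 52.4 and 54.3 FPKM in control libraries. The groups did not overlap, and the spread within each group was a small part of the gap between them. The means were 65.5 ± 1.01 FPKM with PAMK and 52.8 ± 1.35 FPKM in control cells (SD, n = 3 each). The log2 fold change was 0.31 ± 0.04 (SE) with a limma p of 0.000474 that became 0.165 after adjustment over all genes. With equal medians the log2 fold change was 0.19 ± 0.04.

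Cct5 (chromosome 15, 31590800 to 31601804) had 117, 119 and 115 FPKM in PAMK libraries, against 95.6, 105 and 105 FPKM in control libraries, again with no overlap (log2 fold change 0.20 ± 0.05, or 0.08 ± 0.05 with equal medians; limma adjusted p = 0.351 as deposited). Cct7 had 48.6, 97.4 and 94.0 FPKM in PAMK libraries, against 33.5, 48.4 and 49.1 FPKM in control libraries. PAMK library 1 lay among the control libraries and the other 2 stood well above them (log2 fold change 0.81 ± 0.32; limma adjusted p = 0.498). Cct4 and Cct8 overlapped between groups, with 99.5 to 116 and 69.9 to 89.9 FPKM in PAMK libraries, against 101 to 122 and 77.6 to 86.8 FPKM in control libraries.

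The deposited lncRNA table, taken here as FPKM too, holds noncoding isoforms under the names of 38 chaperone genes, 113 transcripts in all, and for some TRiC subunits these carried much of the signal. Cct6a (chromosome 5, 129787439 to 129845820) had 0.390, 0.369 and 0.294 FPKM of coding transcript in PAMK libraries, against 1.38, 0.674 and 0.348 FPKM in control libraries. Its noncoding isoforms summed to 107, 108 and 108 FPKM in PAMK libraries, against 113, 96.2 and 104 FPKM in control libraries. With both added, the log2 fold change of Cct6a was 0.04 ± 0.07 and the groups overlapped, whereas coding transcripts alone gave -0.37 ± 0.22 (SE; limma adjusted p = 0.616).

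Tcp1 showed opposite orders in its coding and noncoding transcripts. Its coding transcripts had 42.2, 51.5 and 46.0 FPKM in PAMK libraries, against 34.8, 37.9 and 33.5 FPKM in control libraries, each PAMK library higher, with a log2 fold change of 0.38 ± 0.09 (SE; limma adjusted p = 0.315). Its noncoding isoforms had 34.0, 35.2 and 41.9 FPKM in PAMK libraries, against 45.8, 48.9 and 59.1 FPKM in control libraries, all lower with PAMK. The sum of both was 76.2, 86.6 and 87.9 FPKM in PAMK libraries, against 80.6, 86.9 and 92.6 FPKM in control libraries, with groups that overlapped and a log2 fold change of -0.05 ± 0.08 (SE; limma adjusted p = 0.853). How reads were shared between the coding and noncoding transcripts of a gene was set by the authors' assembly and was not tested.

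With noncoding isoforms added, Cct5 and Cct2 kept PAMK libraries above control libraries, with a log2 fold change of 0.20 ± 0.05 for Cct5 (SE; limma adjusted p = 0.367). Cct2 has no noncoding isoform in the table. Summed Cct7 stood at 57.1, 109 and 105 FPKM in PAMK libraries, against 43.3, 54.8 and 55.9 FPKM in control libraries, each PAMK library higher (limma adjusted p = 0.496). Summed Cct4 stood at 140, 145 and 143 FPKM in PAMK libraries, against 148, 154 and 145 FPKM in control libraries. That order, all lower with PAMK, was opposite to that of Cct2 and Cct5, and the log2 fold change was -0.06 ± 0.04 (SE; limma adjusted p = 0.672). The 7 tested TRiC members had a median log2 fold change of 0.20 from coding transcripts and 0.15 from both kinds. From coding transcripts 5 were above 0 (against 60.5% of all genes) and 4 with equal medians (against 44.3% of all genes). The remaining pair under the rule, Cct6b and Cct8l1, stayed below 0.12 FPKM in every library.

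**Figure D3:**
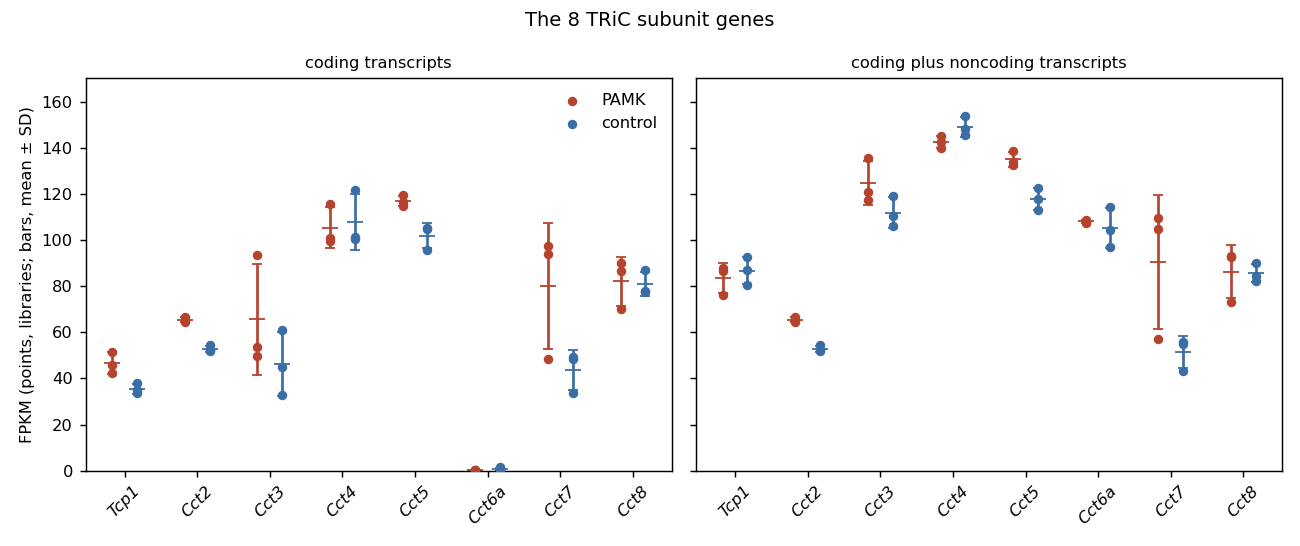
FPKM of the 8 TRiC subunit genes in each PAMK and control library (points), with mean ± SD (bars, n = 3 per group), from coding transcripts (left) and with noncoding isoforms of the same name added (right). Cct6a sits near 0 on the left and near 100 FPKM on the right, and Tcp1 has PAMK points above control points only on the left.

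HSP70 and its HSP110 relatives had 10 tested genes, 7 above 0 (against 60.5% of all genes) with a median log2 fold change of 0.09. With equal medians 5 were above 0 (against 44.3% of all genes) and the median was 0.01, and after quantile normalization it was -0.01. Hspa9, the mitochondrial HSP70, had 49.1, 58.1 and 65.1 FPKM in PAMK libraries, against 70.9, 38.0 and 70.9 FPKM in control libraries, with overlap. Hspa8, the constitutive cytosolic HSP70 (chromosome 9, 40800984 to 40805200), had 56.0, 90.1 and 0 FPKM of coding transcript in PAMK libraries, against 12.8, 2.45 and 25.4 FPKM in control libraries. Hspa8 was thus listed at 0 in PAMK library 3 and at the highest values of the family in PAMK libraries 1 and 2, and its log2 fold change was 0.68 ± 1.95 (SE; limma adjusted p = 0.917).

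Noncoding isoforms of Hspa8 were present in every library. ENSMUST00000138895 had 24.2, 15.4 and 15.7 FPKM in PAMK libraries, against 7.45, 5.45 and 5.79 FPKM in control libraries. All PAMK libraries were above all control libraries, with a log2 fold change of 1.53 ± 0.24 on log2(FPKM + 0.1) and a limma adjusted p of 0.299. ENSMUST00000149936 had 38.0, 36.2 and 13.3 FPKM in PAMK libraries, against 13.7, 8.72 and 5.25 FPKM in control libraries, with 1 PAMK library inside the control range (limma adjusted p = 0.839). Coding and noncoding Hspa8 together stood at 120, 144 and 31.9 FPKM in PAMK libraries, against 36.9, 17.8 and 38.2 FPKM in control libraries. PAMK library 3 again lay among the controls, and the log2 fold change was 1.46 ± 0.65 (SE; limma adjusted p = 0.547). These Hspa8 isoforms were picked after their values were seen.

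The classic heat-inducible HSP70 genes were close to 0 in both groups. Hspa1a stood at no more than 0.041 FPKM in PAMK and 0.0575 FPKM in control libraries, and Hspa1b at no more than 0.113 and 0.0254 FPKM in PAMK and control libraries. The copies are nearly identical, so reads may be split or dropped between them and these values are uncertain. Hspa1l and Hspa2, best known from testis, stood at 2.34 to 2.60 and 0.824 to 1.36 FPKM in PAMK libraries, against 1.85 to 2.50 and 1.10 to 1.37 FPKM in control libraries. Hspa14, a ribosome-associated HSP70, and Hspa12b, a distant relative, also overlapped between groups. Hspa13 ranged from 0.731 to 12.6 FPKM in PAMK and from 1.07 to 13.3 FPKM in control libraries.

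HSP110 proteins act as exchange factors of HSP70. Hsph1 had 44.5, 42.9 and 40.0 FPKM in PAMK libraries, against 46.3, 42.0 and 21.2 FPKM in control libraries. Hspa4l had the largest log2 fold change of the chaperone genes from coding transcripts, 1.39 ± 0.86 (SE; limma adjusted p = 0.636), from 6.62, 6.29 and 7.19 FPKM in PAMK libraries, against 9.42, 0.0139 and 1.41 FPKM in control libraries. The PAMK libraries were alike, while control library 1 was the highest of all 6 and control library 2 was near 0. The Hspa4l log2 fold change was 2.30 without control library 1, 0.62 without control library 2 and 0.83 with noncoding isoforms added. Hspa4 was listed at 0 in 2 PAMK libraries and 1 control library, with 3.73 FPKM in PAMK library 1, against 0.312 and 0.585 FPKM in control libraries 1 and 2. Hspbp1, an exchange factor named under the rule but outside the HSP70 fold, had 2.29, 2.06 and 2.03 FPKM in PAMK libraries, against 4.36, 10.4 and 0.909 FPKM in control libraries (log2 fold change -0.64 ± 0.66; limma adjusted p = 0.761). Without control library 2 it was -0.03 ± 0.48, and without control library 3 it was -1.32 ± 0.36.

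Small heat shock proteins were led by Hspb8, which works with BAG3 in the selective disposal of damaged protein. Hspb8 had 26.1, 25.4 and 26.1 FPKM in PAMK libraries, against 20.9, 24.1 and 22.9 FPKM in control libraries. The groups did not overlap, with a log2 fold change of 0.19 ± 0.07 (SE; limma adjusted p = 0.465). With equal medians it was 0.07 ± 0.06. Hspb11 had 1.46, 1.02 and 2.37 FPKM in PAMK libraries, against 0.923 FPKM in control library 2 and a listed 0 in control libraries 1 and 3. Its log2 fold change was 1.04 ± 0.34 (SE; limma adjusted p = 0.438). Hspb2, a muscle small heat shock protein, had 3.52, 4.50 and 2.59 FPKM in PAMK libraries, against 2.57, 2.98 and 0.16 FPKM in control libraries, with a log2 fold change of 0.81 ± 0.53 (SE; limma adjusted p = 0.648) that was 0.25 ± 0.22 without control library 3. Hspb1, or HSP27, was low, at 0.421 to 0.811 FPKM in PAMK and 0.530 to 1.08 FPKM in control libraries. Of the 6 tested small heat shock genes, 5 had a log2 fold change above 0 as deposited (against 60.5% of all genes). With equal medians 4 did (against 44.3% of all genes).

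Among the DNAJA genes, Dnaja1, the major cytosolic partner of HSC70, was listed at 0 in 2 PAMK and 2 control libraries, with 0.221 FPKM in PAMK library 3 and 0.0168 FPKM in control library 2. Dnaja2, its close relative, had 6.23, 0.433 and 2.49 FPKM in PAMK libraries, against 0.241, 0.101 and 15.3 FPKM in control libraries. Both groups spread more than 10-fold. Dnaja3, the mitochondrial member also called Tid1, had 8.55, 17.2 and 9.65 FPKM in PAMK libraries, against 11.1, 7.43 and 13.2 FPKM in control libraries. These genes gave no separation between PAMK and control cells.

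The DNAJB class was led by Dnajb12, a J protein of the endoplasmic reticulum membrane, Dnajb1, the classic HSP40, and Dnajb6, a suppressor of polyglutamine aggregation. Dnajb12 had 16.8, 13.0 and 17.5 FPKM in PAMK libraries, against 14.3, 18.1 and 16.2 FPKM in control libraries. Dnajb1 ranged from 8.21 to 18.2 FPKM in PAMK and from 8.84 to 17.7 FPKM in control libraries, and Dnajb6 from 10.7 to 13.4 FPKM in PAMK and from 9.93 to 13.5 FPKM in control libraries. None of these 3 separated the groups. Dnajb2 had 2.48, 5.05 and 5.92 FPKM in PAMK libraries, against 2.82, 2.92 and 0.22 FPKM in control libraries, with overlap (log2 fold change 1.00 ± 0.56; limma adjusted p = 0.591). Without control library 3 the Dnajb2 log2 fold change was 0.44 ± 0.34, and with noncoding isoforms added it was 0.61 ± 0.30.

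The DNAJC class is the largest, with 27 genes of which 21 were tested. Of those, 17 (81.0%) had a log2 fold change above 0 as deposited, against 60.5% of all genes. With equal medians 11 (52.4%) were above 0, against 44.3% of all genes. The 3 most abundant DNAJC genes overlapped between groups. Dnajc10 had 29.6, 29.6 and 31.9 FPKM in PAMK libraries, against 31.3, 33.5 and 31.8 FPKM in control libraries. With equal medians its log2 fold change was -0.20 ± 0.06 (SE), lower with an unadjusted limma p of 0.0169. Dnajc13, an endosomal J protein, ranged from 14.1 to 15.2 FPKM in PAMK and from 13.3 to 14.9 FPKM in control libraries, and Dnajc14 from 7.39 to 10.1 FPKM in PAMK and from 5.18 to 9.20 FPKM in control libraries.

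Groups without overlap were found among less abundant DNAJC genes. Dnajc2, a J protein of the ribosome that meets chains as they emerge, had 4.68, 4.26 and 4.46 FPKM in PAMK libraries, against 3.00, 3.50 and 2.17 FPKM in control libraries. All PAMK libraries were above all control libraries (log2 fold change 0.51 ± 0.16; limma adjusted p = 0.425), and with its noncoding isoforms added the log2 fold change was 0.20 ± 0.09. Dnajc4 had 1.71, 2.53 and 2.76 FPKM in PAMK libraries, against 1.54, 1.28 and 1.42 FPKM in control libraries, also without overlap (log2 fold change 0.45 ± 0.16; limma adjusted p = 0.469). Dnajc27, which joins a Rab-like GTPase to a J domain, ran the other way. It had 3.51, 4.09 and 4.55 FPKM in PAMK libraries, against 4.81, 5.82 and 5.86 FPKM in control libraries, every PAMK library lower (log2 fold change -0.36 ± 0.13; limma adjusted p = 0.465). Dnajc24, a J protein of diphthamide synthesis, had 0.94 to 1.51 FPKM in PAMK and 1.13 to 2.98 FPKM in control libraries (log2 fold change -0.38 ± 0.26, or -0.14 without control library 1 and -0.59 without control library 2; limma adjusted p = 0.667).

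The other 19 chaperone genes stayed below a mean of 0.5 FPKM and were not tested. Dnajc12, Dnajc5b and Dnajc5g were listed at 0 in all 6 libraries. Hspb3, Dnajb8, Dnajb13, Dnajb3, Dnajb4, Dnaja4, Hspb7, Hspa12a, Dnajc6, Dnajc18 and Dnajc28 were at most 0.693 FPKM in any PAMK library and 0.292 FPKM in any control library, both values from Dnajb4. The others below the limit were Cct6b, Cct8l1, Dnaja1, Hspa1a and Hspa1b. Just above it lay Dnajc9, a histone chaperone, with a mean of 0.535 FPKM over the 6 libraries, and Cct6a with 0.576 FPKM. Just below it lay Dnajb4 with a mean of 0.257 FPKM.

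At the level of single transcripts, 0 of 88 tested chaperone transcripts passed limma's test at an adjusted p under 0.05, against 0.204% of 14728 coding transcripts. At an unadjusted p under 0.05, 8 were higher with PAMK (9.09%, against 5.04% of all) and 2 lower (2.27%, against 2.43% of all). All PAMK libraries lay above all control libraries for 12 chaperone transcripts (13.6%, against 10.8% of all) and below for 2 (2.27%, against 5.12% of all). Each lower one came from a gene whose other transcript ran in the opposite order. Dnajc27 transcript ENSMUST00000049584 had 0.917, 1.44 and 1.14 FPKM in PAMK libraries, against 2.40, 3.40 and 3.41 FPKM in control libraries (log2 fold change -0.91 ± 0.18; limma adjusted p = 0.323). Its partner ENSMUST00000020986 had 2.59, 2.65 and 3.41 FPKM in PAMK libraries, against 2.40, 2.42 and 2.45 FPKM in control libraries. In Dnajc27 the first transcript was thus lower and the second higher in every PAMK library.

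Dnajc13 gave the other lower transcript, named after its values were seen, as were the single transcripts of Hsp90aa1, Hsph1, Dnaja3 and Cct3. ENSMUST00000188998 had 1.39, 1.79 and 0.925 FPKM in PAMK libraries, against 2.96, 3.13 and 2.33 FPKM in control libraries (log2 fold change -0.69 ± 0.19; limma adjusted p = 0.526). Its main transcript ENSMUST00000035170 had 13.8, 13.2 and 13.1 FPKM in PAMK libraries, against 10.3, 11.7 and 12.1 FPKM in control libraries, every PAMK library higher. Dnajc2 transcript ENSMUST00000115193 had 2.91, 2.64 and 2.31 FPKM in PAMK libraries, against 1.61, 1.46 and 1.65 FPKM in control libraries (log2 fold change 0.49 ± 0.13; limma adjusted p = 0.517). It was higher in every PAMK library, as was the Dnajc2 gene sum.

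Several chaperone genes had transcripts that alternated within a group. Where another transcript filled the gaps, the gene sum was steadier than its parts. Hsph1 transcript ENSMUST00000074846 had 40.1 FPKM in PAMK library 2 and was listed at 0 in PAMK libraries 1 and 3, against 43.0 and 20.6 FPKM in control libraries 1 and 3 and a listed 0 in control library 2. Hsph1 transcript ENSMUST00000202361 filled the gaps, with 43.5, 1.48 and 39.3 FPKM in PAMK libraries, against 2.06, 41.4 and 0.478 FPKM in control libraries. Dnaja3 transcript ENSMUST00000115854 had 8.15, 8.18 and 9.30 FPKM in PAMK libraries, against 1.54, 7.11 and 1.91 FPKM in control libraries (log2 fold change 1.28 ± 0.47; limma adjusted p = 0.643). The gene sum of Dnaja3 did not separate the groups. Dnaja3 transcript ENSMUST00000060067 had 0.405, 9.06 and 0.348 FPKM in PAMK libraries, against 9.56, 0.316 and 11.3 FPKM in control libraries.

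Counted over the table, 13 of the 39 chaperone transcripts that reached 5 FPKM in a library (33.3%, from 11 genes) were under 0.5 FPKM in another library of the same group, against 22.9% of all 6635 such coding transcripts. This count was chosen after the values were seen. It also takes in transcripts whose gaps no other coding transcript filled, as in Dnaja2 and Hspa8, where the gene sum spread as widely. Transcript differences are therefore given as deposited values, and the part of the assembly in them was not tested.

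**Figure D4:**
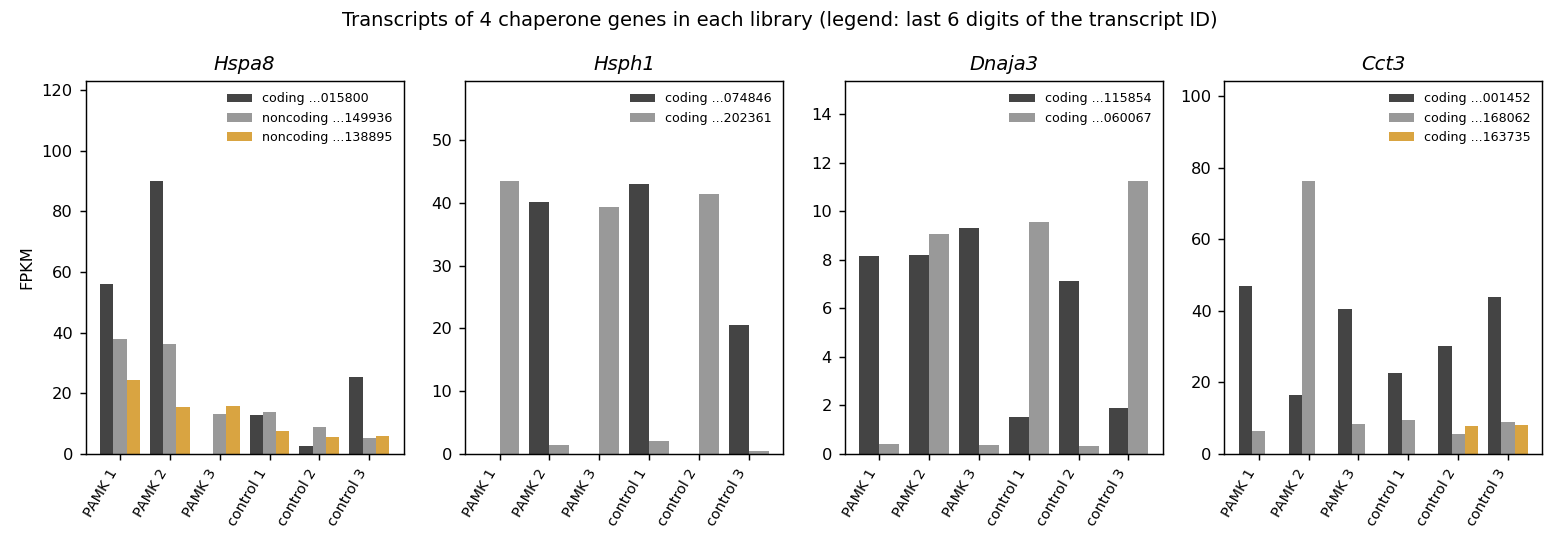
FPKM of single transcripts of Hspa8, Hsph1, Dnaja3 and Cct3 in each PAMK and control library (bars from 0; no replicates within a bar). Hsph1 switches between 2 coding transcripts from library to library in both groups, and coding Hspa8 is listed at 0 in PAMK library 3 while its noncoding isoforms have values there.

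Cct3, whose coding sum was 53.7, 93.3 and 49.8 FPKM in PAMK libraries, against 33.0, 44.7 and 60.8 FPKM in control libraries, had a single high value in 1 transcript. That transcript, ENSMUST00000168062, had 6.45, 76.4 and 8.32 FPKM in PAMK libraries, against 9.42, 5.58 and 8.97 FPKM in control libraries. Summed with noncoding isoforms, Cct3 stood at 118, 135 and 121 FPKM in PAMK libraries, against 110, 106 and 119 FPKM in control libraries, with overlap.

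Among noncoding isoforms carrying a chaperone gene name, 0 of 100 tested passed at an adjusted limma p under 0.05, against 0.038% of 23670 transcripts. At an unadjusted p under 0.05, 7 were higher with PAMK (7%, against 3.62% of all) and 2 lower (2%, against 2.15% of all). All PAMK libraries lay above all control libraries for 7 (7%, against 7.06% of all) and below for 5 (5%, against 4.23% of all). Besides those of Hspa8, Dnajc7 stood out after its values were seen. Dnajc7 bridges HSP70 and HSP90, and its noncoding transcript ENSMUST00000128414 had 0.493, 0.539 and 0.641 FPKM in PAMK libraries, against 0.0157, 0.141 and 0.0606 FPKM in control libraries (log2 fold change 1.99 ± 0.38 on log2(FPKM + 0.1); limma adjusted p = 0.425). At these low values it depends on the pseudocount: it was 0.89 ± 0.15 with 0.5 and 0.54 ± 0.09 with 1. Coding and noncoding Dnajc7 together stood at 3.43 to 4.87 FPKM in PAMK and 1.74 to 2.65 FPKM in control libraries, without overlap (limma adjusted p = 0.371). The share of all genes without overlap was not counted for such sums. Coding Dnajc7 alone overlapped between groups. Its means were 1.13 ± 0.82 FPKM with PAMK and 0.61 ± 0.47 FPKM in control cells (SD; limma adjusted p = 0.737). With noncoding isoforms added to every gene, 9 of 61 tested chaperone genes were higher at an unadjusted limma p under 0.05 (14.8%, against 6.84% of all genes) and 1 was lower (1.64%, against 2.69%).

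The genes that work with these chaperones were read from lists of co-chaperones, chaperonin partners, stress factors and quality control proteases. Of 97 listed genes 87 were tested, and 0 passed limma's adjusted threshold; 11 were higher and 1 was lower at an unadjusted p under 0.05 (12.6% and 1.15%, against 7.3% and 2.71% of all genes). Among 17 tested HSP90 co-chaperones, 3 were higher and 0 lower, with a median log2 fold change of 0.17. Stip1, which passes clients between HSP70 and HSP90, had 41.8, 38.5 and 34.2 FPKM in PAMK libraries, against 21.2, 25.7 and 28.4 FPKM in control libraries. Ahsa1, the activator of HSP90 ATPase, had 70.0, 66.6 and 62.2 FPKM in PAMK libraries, against 45.5, 54.1 and 55.2 FPKM in control libraries. In both genes every PAMK library was above every control library (log2 fold change 0.59 ± 0.13 and limma adjusted p = 0.305 for Stip1; 0.36 ± 0.09 and 0.356 for Ahsa1).

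Of 16 tested HSP70 co-factors, 3 were higher and 0 lower (against 7.3% and 2.71% of all genes), with a median log2 fold change of 0.04. St13, the HSP70-interacting protein Hip, had 29.2, 21.3 and 31.9 FPKM in PAMK libraries, against 1.12, 1.51 and 10.7 FPKM in control libraries. The lowest PAMK value was above the highest control value, and the log2 fold change was 2.83 ± 0.70 (SE; limma adjusted p = 0.343). Without control library 3, St13 passed, with a log2 fold change of 3.61 ± 0.21 and a limma adjusted p of 0.0367. With its noncoding isoforms added the log2 fold change was 1.07 ± 0.42, and over all alternatives the limma adjusted p ran from 0.0367 to 0.673. Hscb, a J protein of iron-sulphur cluster assembly, had 4.75, 4.81 and 4.32 FPKM in PAMK libraries, against 3.53, 3.51 and 3.54 FPKM in control libraries (limma adjusted p = 0.377).

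The lists that follow are read against the same shares, 7.3% of all genes higher and 2.71% lower, and the all-gene median of 0.06. Of 21 tested mitochondrial quality control genes, 1 was higher and 0 lower, with a median of 0.04. It was Clpp, the mitochondrial matrix protease, with 33.2, 33.5 and 33.2 FPKM in PAMK libraries, against 28.9, 30.2 and 28.2 FPKM in control libraries (log2 fold change 0.19 ± 0.05, or 0.07 with equal medians; limma adjusted p = 0.339). Trap1, the mitochondrial HSP90, had 1.18, 11.4 and 0 FPKM in PAMK libraries, against 12.4, 2.34 and 1.75 FPKM in control libraries, with overlap. In the TRiC and prefoldin list outside the name rule, 2 of 13 tested genes were higher and 1, Vbp1, was lower, with a median of 0.19. Of 16 tested chaperone genes of the endoplasmic reticulum, 2 were higher and 0 lower, with a median of 0.07.

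The heat shock factors themselves did not separate the groups. Hsf1 had 3.32, 4.21 and 4.33 FPKM in PAMK libraries, against 4.60, 4.13 and 3.02 FPKM in control libraries. Hsf2 was below the limit, at 0.226 to 0.463 FPKM in PAMK and 0.240 to 0.434 FPKM in control libraries. Of 4 tested heat shock and mitochondrial stress factors, 0 were higher or lower at an unadjusted limma p under 0.05, with a median of 0.26. All 4 had a log2 fold change above 0, against 60.5% of all genes. In Atf5 and Hsbp1 every PAMK library was above every control library, as in 14.1% of all genes. Of 16 tested textbook HSF1 targets, a list that shares genes with those above, 3 were higher and 0 lower at an unadjusted limma p under 0.05 and 12 had a log2 fold change above 0, with a median of 0.18. Over all genes tested the shares were 7.3% higher, 2.71% lower and 60.5% above 0 as deposited, with a median of 0.06. With equal medians 44.3% of all genes were above 0, a scaling under which this list was not counted.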

How the data were processed

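Only the 6 total RNA libraries were used. Per the labels' protocols, the RNA was depleted of ribosomal RNA and sequenced as paired reads (Illumina NovaSeq). Reads were handled with HISAT2, StringTie, cutadapt, FastQC and edgeR, per the submitters' processing notes. Their versions and the genome build, annotation and strand are not given in the sources used. The deposited values were taken as FPKM: the headers say normalized counts, but the layout is that of StringTie and library totals differ. No fragment counts are known, so no interval for counting error is given. A deposited 0.0001 was set to 0. Gene positions are as deposited, and all 78 overlapped the RefSeq GRCm38.p6 gene of that symbol.

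Coding transcripts were summed by gene name. Features with a mean of at least 0.5 FPKM were tested on log2(FPKM + 1), which understates changes of low genes, with limma 3.58.1 in R 4.3.3 (intensity trend, two-sided), adjusted by Benjamini-Hochberg over all features at 0.05. Noncoding transcripts used a mean of at least 0.1 and log2(FPKM + 0.1), a fit added after the data were seen. Of these steps only the limma fit was tested on simulated data with planted changes, and the share recovered is not given here. The alternatives were other pseudocounts, filters, scalings, variance fits and a replicate block, noncoding isoforms added, and leaving out each library.

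The genes and lists were chosen with earlier results of these data known. The rule for names took tested HSP90, HSP70, HSP60, TRiC and small heat shock genes, the 3 most abundant of each DNAJ class, the 8 genes with the smallest p, the 5 largest differences each way, the 6 transcripts with the smallest p, up to 3 genes per list, and Hsf1, Hsf2, Tcp1 and Trap1. Small RNA data were not used here, and 1 chaperone gene that enters the counts is not reported here by itself.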

Additional observations from a re-analysis of the deposited data

How the results depend on the processing

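None of the chaperone genes passed an adjusted limma p of 0.05 under any alternative. The count higher at an unadjusted p under 0.05 was 9. It was 5 with equal medians, 5 with the replicate block and 5 to 7 when 1 library was left out. The count lower was 1, 2 with equal medians and 0 to 2 when 1 library was left out. The share over all genes was not counted with the replicate block or with 1 library left out. Those counts thus stand without a background. The median log2 fold change of 0.13 was 0.16 with a pseudocount of 0.5, 0.0712 with no filter on low values, 0.0497 with equal medians, 0.0395 after quantile normalization, and 0.0857 to 0.197 when 1 library was left out. Chaperone transcripts past the adjusted threshold numbered 0 to 1 when 1 library was left out (Cct3 transcript ENSMUST00000163735 without control library 1), as did partner genes (St13 without control library 3). The sign turned for Cct6a (0.0412) and Tcp1 (-0.0529) with noncoding isoforms added, and for Hspa8 with a pseudocount of 0.1 (-0.24) and when 1 library was left out (-0.51 to 2.74); beyond the added isoforms and the dropped samples, the cause was not tested.

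Libraries with the same replicate number did not deviate together (correlations of -0.0229, 0.00663 and 0.00313), so the numbers were not taken as pairs. With the replicate block, 6 chaperone genes had an unadjusted p under 0.05, and all 6 were among the 10 without it. Depth in fragments is unknown, so what sampling adds to the low values cannot be given.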
